A study of Mus musculus with 18 samples.

Results

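Hippocampi of mice that had recovered in normoxia after intermittent hypoxia treatment (IHT) were compared with hippocampi taken at the end of the same treatment. The comparison used the 3 arrays titled IH5DR2 and the 3 arrays titled IH5D, of 18 arrays in 6 groups, and asked which hippocampal RNAs differed once the hypoxia had stopped. IHT, a model of sleep-disordered breathing, repeated cycles of 3 min in which nitrogen lowered the inspired oxygen to 5% and room air returned it to 21%, for 8 h a day. Total hippocampal RNA was measured on Affymetrix mouse genome arrays. IH5DR2 mice were exposed to IHT on 5 days and then kept in normoxia for 64 h, which their label gives as 2 days, and IH5D mice were exposed to IHT on 5 days and killed right after the last session. Both groups, and the untreated controls (Ctrl, 3 arrays), were C57Bl/6 mice with no genetic change. The study's methods give them as C57BL/6J males, 10 weeks old at the start of the experiments. Since sessions ended in the late afternoon, when IH5D tissue was taken, while IH5DR2 tissue was taken in a morning, recovery from IHT and the hour of the day cannot be told apart in any result. Ctrl arrays took part in no test, and their signals are given for reference only. The labels do not say whether each array held RNA of a separate mouse or of pooled mice, so the p-values measure only the spread between these arrays.

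As background, hippocampal neurons and glia carry receptors for corticosterone, the stress hormone of rodents, whose level in the blood follows the day and rises with stress. The hormone-bound glucocorticoid receptor enters the nucleus and binds a pair of mirrored sites in DNA, and Sgk1, Fkbp5, Fam107a and the metallothioneins are among the genes that it induces. A shortage of oxygen stabilizes hypoxia-inducible factors, which raise the transcription of glucose transporters and glycolytic enzymes. The molecular clock runs in most cells, where Clock and Arntl activate Per, Cry, Dbp and Ciart through E-boxes, and the Per and Cry proteins then repress them.

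The 6 arrays were alike in depth and quality. Signals are unlogged MAS5 values, which the authors scaled to the same mean on every array, and the median signal was 20.3 to 21.3 on the IH5DR2 arrays and 20.6 to 21.9 on the IH5D arrays. Pairs of arrays correlated at 0.972 to 0.979 within IH5DR2, at 0.972 to 0.974 within IH5D and at 0.968 to 0.977 between the groups (log2 signals over the probe sets). The log2 gap between 3' and 5' probe sets of Actb and Gapdh, a measure of RNA degradation, was 0.48 to 0.49 on the IH5DR2 arrays and 0.46 to 0.53 on the IH5D arrays. Some markers of the hippocampus were bright. Neurod6, of pyramidal neurons, had a signal of 724 ± 46.9 in IH5DR2 and 809 ± 84.9 in IH5D (SD, n = 3 arrays each, here and below). C1ql2, of dentate granule cells, had 324 ± 28.1 in IH5DR2 and 264 ± 73.6 in IH5D. Others were dimmer, such as Prox1, also of dentate granule cells, with 82.0 ± 3.7 in IH5DR2 and 80.7 ± 15.1 in IH5D.

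Few RNAs differed beyond the spread between arrays. Of 45101 probe sets on the array, 22693 had a mean signal above 20 and were tested with limma, and 28 of them (0.123%) passed at an adjusted p below 0.05. In IH5DR2 hippocampi 10 probe sets were higher (0.0441%), among them those of the nuclear RNA Malat1, the sodium pump subunit gene Atp1b2 and the small heat shock protein gene Cryab. The other 18 were lower (0.0793%), among them those of the kinase gene Sgk1, the NF-kappa-B inhibitor gene Nfkbia and the glucose transporter gene Slc2a1. The median log2 difference over all probe sets tested was 0.00414, and 2106 had an unadjusted p below 0.05 (957 higher, 1149 lower). The calls rest on the spread of these 6 arrays pooled along the signal range: no probe set passed in a fit of all 18 arrays, without the variance trend or by the methods' t-test after adjustment, and leaving out any 1 array left 8 to 13 calls. Whichever array was left out, Sgk1, both probe sets of Malat1, Ifngr2, Rab6b and Snap25 passed (highest adjusted p from 0.0344 to 0.0444), and Gpbp1 and Pnmal2 passed in 5 of the 6 fits and Gm19439 in 3. Nfkbia, Atp1b2, Cryab, Depp1, Eif3c, Cplx2, Gapvd1 and Rad21 passed in 1 of the 6 fits. Slc2a1, Gsk3b, Glrb, Lrrc8d, Preb, Smg1, Cnbp, Rbm39 and Bpnt2 passed in none of them. In bulk tissue, fewer cells of a type and less RNA per cell cannot be told apart.

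**Figure D1:**
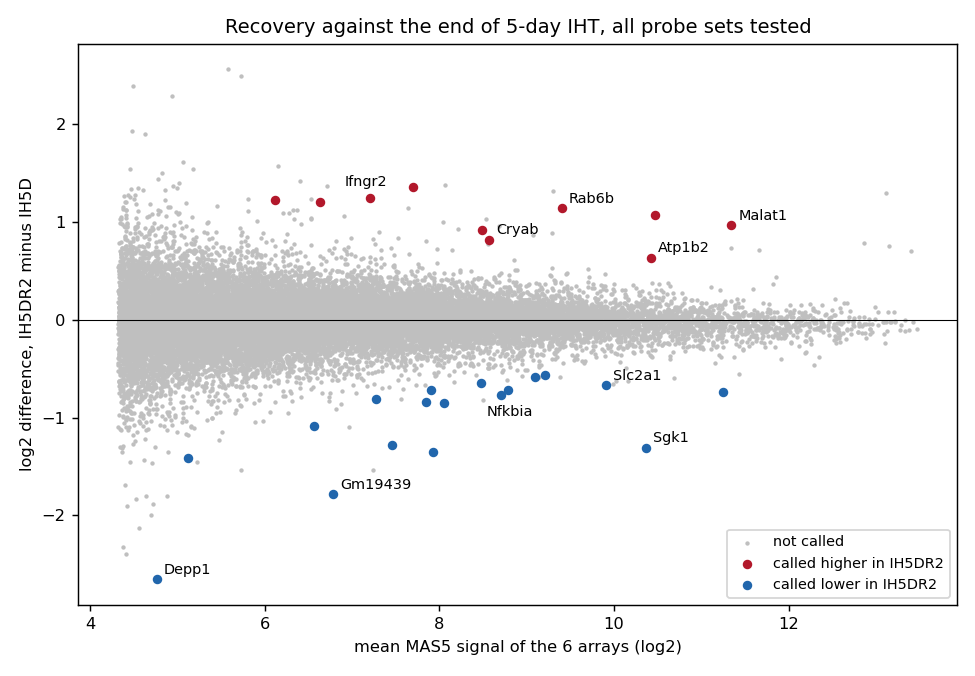
Log2 difference of IH5DR2 minus IH5D (vertical axis) against the mean MAS5 signal of the 6 arrays on a log2 scale (horizontal axis), with each point a probe set tested. The 10 probe sets called higher in IH5DR2 and the 18 called lower lie at the edge of the cloud of the others at their signal, and the brightest of them is Malat1.

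Sgk1, a serum- and glucocorticoid-induced kinase that controls ion channels and transporters, fell in the recovered hippocampi. Its signal was 757, 740 and 755 on the IH5DR2 arrays, against 2103, 2134 and 1422 on the IH5D arrays, and 1749, 1767 and 919 on the Ctrl arrays. The IH5DR2 arrays stood close together below all arrays of the other groups. The log2 difference was -1.31 ± 0.14 (SE; adjusted p = 0.00278), a level 2.47-fold lower in IH5DR2. Sgk1 was the 1 gene that also passed when each gene was given the mean of its probe sets (adjusted p = 0.025). No other probe set of Sgk1 was tested, so that this mean was the same probe set and shows no agreement between probe sets. In the fit of all 18 arrays the adjusted p of Sgk1 was 0.0821.

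Nfkbia encodes the inhibitor that holds NF-kappa-B in the cytoplasm, and it is a target both of NF-kappa-B and of the glucocorticoid receptor. The probe set that passed had signals of 305, 329 and 291 in IH5DR2, against 558, 576 and 445 in IH5D, and 471, 536 and 478 in Ctrl. IH5DR2 lay below both other groups with no overlap, and the log2 difference was -0.76 ± 0.11 (adjusted p = 0.0284). The 4 other probe sets of the gene had log2 differences of -0.73 to -0.39, and none of them passed.

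Slc2a1 encodes GLUT1, the glucose transporter of the blood-brain barrier and of astrocytes, and it is induced by hypoxia-inducible factors. Signals were 709, 805 and 705 in IH5DR2, against 1105, 1360 and 1074 in IH5D, and 1096, 1493 and 1145 in Ctrl. Again the IH5DR2 arrays lay below both other groups, with a log2 difference of -0.67 ± 0.11 (adjusted p = 0.0417). Its other probe sets had differences of -0.52 and -0.53 and did not pass. Depp1, a gene that is induced by fasting and hormones and acts on autophagy, showed the largest fold among the calls, from low signals. They were 6.64, 5.10 and 9.87 in IH5DR2, against 57.6, 58.8 and 24.6 in IH5D, and 4.85, 5.95 and 5.72 in Ctrl. The IH5DR2 mean of 7.20 lay below the signal minimum, which the probe set passed only through its IH5D mean of 47.0. The size of this fold therefore rests on values below that minimum. IH5DR2 and Ctrl arrays overlapped below all IH5D arrays, and the log2 difference of -2.65 ± 0.43 passed narrowly (adjusted p = 0.0498), beside -1.80 for its other probe set, which did not pass. Depp1 lies outside the rule for named genes and was chosen after its values were seen.

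Sgk1 and Nfkbia belong to a list of 29 glucocorticoid receptor genes and targets, of which 28 were above the signal minimum. On the probe set of highest signal per gene, 1 of the 28, Sgk1, passed in the direction of lower in IH5DR2 and none in the other. On 15 of the 28 (53.6%) all IH5DR2 arrays lay below all IH5D arrays, and on none did they lie above. Over the 11652 genes measured the groups separated in this way in 6.99% (lower) and 7.68% (higher). This list, like those below, was chosen with earlier results of these data known, so that the excess describes the list and tests nothing. The median log2 difference of the list was -0.34, beside 0.0129 over all genes, and 24 of the 28 differences were negative. The mean log2 signal of the list was 8.22, 8.18 and 8.17 on the IH5DR2 arrays and 8.52, 8.73 and 8.40 on the IH5D arrays. The receptor genes themselves overlapped between the groups, with log2 differences of 0.11 ± 0.12 for Nr3c1, the glucocorticoid receptor, and -0.02 ± 0.09 for Nr3c2, the mineralocorticoid receptor.

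After Sgk1, the members of smallest p were Nfkbia, Fam107a and Plin4, none of which passed on the probe set of highest signal. Fam107a, an actin-bundling protein induced by stress in the hippocampus, had signals of 4198, 4123 and 4293 in IH5DR2, against 5151, 6335 and 5963 in IH5D (log2 -0.46 ± 0.09, adjusted p = 0.102). Plin4, which coats lipid droplets, had 26.8, 15.4 and 17.4 in IH5DR2, against 40.0, 76.8 and 47.6 in IH5D (-1.45 ± 0.31, adjusted p = 0.15). Nfkbia, on this brighter probe set, had 888, 791 and 768 in IH5DR2, against 1289, 1432 and 1070 in IH5D (-0.62 ± 0.11, adjusted p = 0.0741). In each of these genes the groups stood apart without overlap. Chosen for their separation, the others were the metallothionein genes Mt2 (-0.56) and Mt1 (-0.34), the phagocytic receptor gene Mertk (-0.56), Arrdc2 (-0.87), the receptor cochaperone gene Fkbp5 (-0.36), the glutamine synthetase gene Glul (-0.33), the transcription factor genes Klf9 (-0.27), Cebpd (-0.32), Tsc22d1 (-0.21) and Zbtb16 (-0.18), and the sulfotransferase gene Sult1a1 (-0.45). Ctrl arrays overlapped with IH5D only in 8 of the 15 separated genes, Sgk1, Nfkbia, Fam107a, Mt1, Mt2 and Fkbp5 among them, with IH5DR2 only in 5, such as Klf9 and Mertk, and with both in 2.

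**Figure D2:**
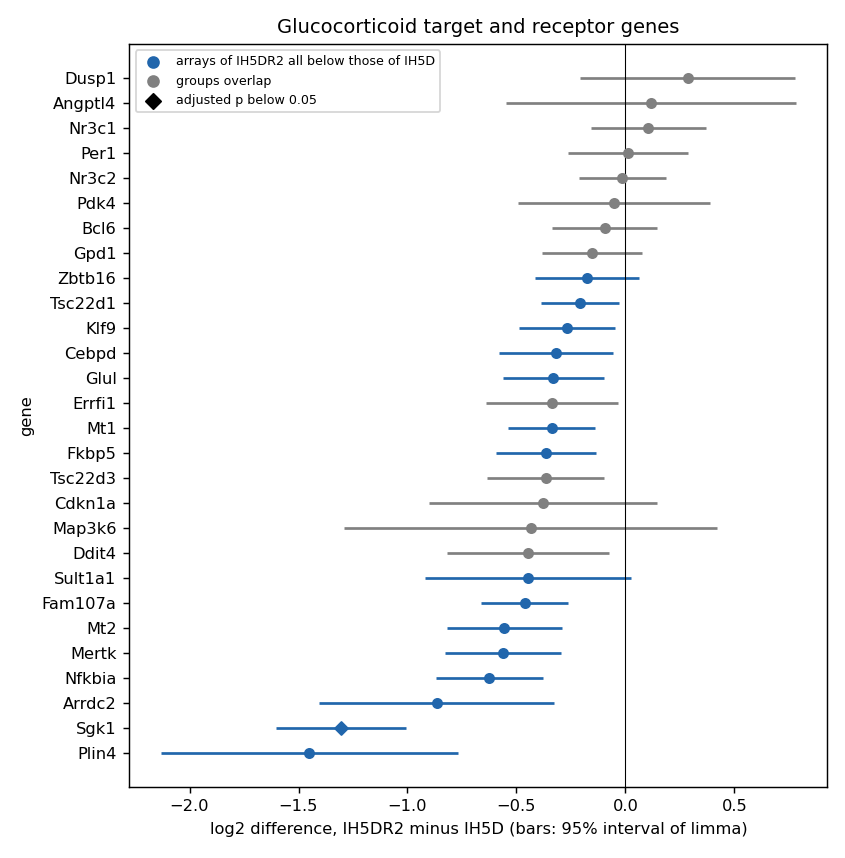
Log2 difference of IH5DR2 minus IH5D with its 95% interval (horizontal axis) for the 28 genes of the glucocorticoid list above the signal minimum (vertical axis), coloured by whether the arrays of the groups overlap. The points of 24 genes lie left of 0, 15 of them in blue without overlap, and Sgk1 is the 1 gene past the threshold.

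The promoters of these genes are shown because the receptor binds DNA of known form. A promoter here is the RefSeq sequence (GRCm38.p6) of 250 bases before to 50 bases after a transcription start. The site pair ACANNNTGT, searched on both strands, occurred in 6.85% of 32851 mouse promoters and in 7 of 40 promoters of the list (5 of the 23 genes that matched). Sgk1 and Fam107a each gave more than 1 of the 7, and those of Fam107a overlap and share the same site, so that these promoters are not independent. The full glucocorticoid response element, in which the pair is extended to AGAACA and its mirror TGTTCT at the same spacing, occurred in 3 of 32851 promoters (0.00913%), and 1 of these is a promoter of Sgk1, which has 6 annotated starts. In the sequences below, written 5′ to 3′ on the gene's strand, capitals mark this full element in Sgk1 (chr10:21993640-21993939, plus strand), the site pair in Fam107a (chr14:8309730-8310029, minus strand) and Mt1 (chr8:94178839-94179138, plus strand), and the NF-kappa-B consensus in Nfkbia (chr12:55492598-55492897, minus strand), which 8.46% of promoters hold.
Sgk1: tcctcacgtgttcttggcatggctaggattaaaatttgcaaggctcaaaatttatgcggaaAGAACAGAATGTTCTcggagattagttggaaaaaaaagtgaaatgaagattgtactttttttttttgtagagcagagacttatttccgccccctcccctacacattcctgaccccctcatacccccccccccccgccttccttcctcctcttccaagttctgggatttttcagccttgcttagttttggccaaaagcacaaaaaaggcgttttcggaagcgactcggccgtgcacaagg
Fam107a: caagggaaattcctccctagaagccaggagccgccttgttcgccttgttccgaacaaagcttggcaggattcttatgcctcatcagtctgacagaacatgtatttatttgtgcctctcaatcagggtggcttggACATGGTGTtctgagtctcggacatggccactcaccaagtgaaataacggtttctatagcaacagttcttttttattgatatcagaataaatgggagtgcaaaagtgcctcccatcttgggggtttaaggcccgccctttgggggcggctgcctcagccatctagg
Mt1: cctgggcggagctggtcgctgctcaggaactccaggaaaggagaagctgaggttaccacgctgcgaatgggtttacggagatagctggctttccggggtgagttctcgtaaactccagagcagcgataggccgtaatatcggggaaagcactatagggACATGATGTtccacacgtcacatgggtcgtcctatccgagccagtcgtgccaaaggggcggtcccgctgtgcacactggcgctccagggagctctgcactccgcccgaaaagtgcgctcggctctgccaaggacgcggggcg
Nfkbia: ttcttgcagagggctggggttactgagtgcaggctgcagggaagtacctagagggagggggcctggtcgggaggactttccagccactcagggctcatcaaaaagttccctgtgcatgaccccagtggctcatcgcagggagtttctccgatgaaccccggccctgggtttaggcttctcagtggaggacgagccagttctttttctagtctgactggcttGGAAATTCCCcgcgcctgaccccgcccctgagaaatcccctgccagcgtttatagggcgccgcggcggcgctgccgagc
The Sgk1 element starts 189 bases before the transcription start, those of Fam107a and Mt1 start 116 and 92 bases before it, and the NF-kappa-B match of Nfkbia 29 bases before it. These matches describe the letters, and no binding was measured.

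Malat1, a long noncoding RNA that stays in the nucleus at sites of splicing factors, rose in IH5DR2 hippocampi. Its brightest probe set had signals of 3882, 3454 and 3017 in IH5DR2, against 1858, 1762 and 1645 in IH5D, and 1055, 725 and 905 in Ctrl. No groups overlapped, with IH5DR2 the highest and Ctrl the lowest. The log2 difference was 0.97 ± 0.10 (adjusted p = 0.00278), and another probe set passed as well, with 2163, 1850 and 1761 in IH5DR2, against 1049, 855 and 835 in IH5D (1.08 ± 0.11, adjusted p = 0.00278). Of its 5 other probe sets none passed, and their differences ran from 0.002 to 0.89. Among 15 long noncoding RNAs measured, Malat1 was the one called. Of the 15, 2 lay higher without overlap (13.3%, beside 7.68% of all genes) and none lower (beside 6.99%). Gas5, host of small nucleolar RNAs, also stood higher without overlap (0.22 ± 0.08, adjusted p = 0.429), whereas Neat1, which builds paraspeckles (0.35 ± 0.21, adjusted p = 0.661), and Rmst, of neurogenesis (-0.61 ± 0.34, adjusted p = 0.616), overlapped between the groups, and the median of the list was -0.01 (-0.12 to 0.05 over the alternative settings).

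Atp1b2, which encodes a glial subunit of the sodium-potassium pump, had signals of 1618, 1693 and 1685 in IH5DR2, against 1024, 1201 and 995 in IH5D, and 1269, 1519 and 1401 in Ctrl. No groups overlapped, with IH5D the lowest and Ctrl between. It rose by a log2 difference of 0.64 ± 0.09 (adjusted p = 0.025), with 0.51 on its dim other probe set. Ifngr2, the signalling chain of the interferon gamma receptor, had 207, 211 and 205 in IH5DR2, against 98.9, 86.1 and 78.8 in IH5D, and 118, 89.5 and 105 in Ctrl. The IH5DR2 arrays were the ones that stood apart (log2 difference 1.24 ± 0.13, adjusted p = 0.00278), but its other probe set, of lower signal, had a difference of -0.06. Cryab, the alpha B-crystallin of glia, had 501, 490 and 461 in IH5DR2, against 249, 320 and 259 in IH5D, and 358, 621 and 448 in Ctrl (0.82 ± 0.11, adjusted p = 0.0209). IH5DR2 lay within the range of Ctrl here, and the brighter probe set of Cryab had a difference of 0.19.

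**Figure D3:**
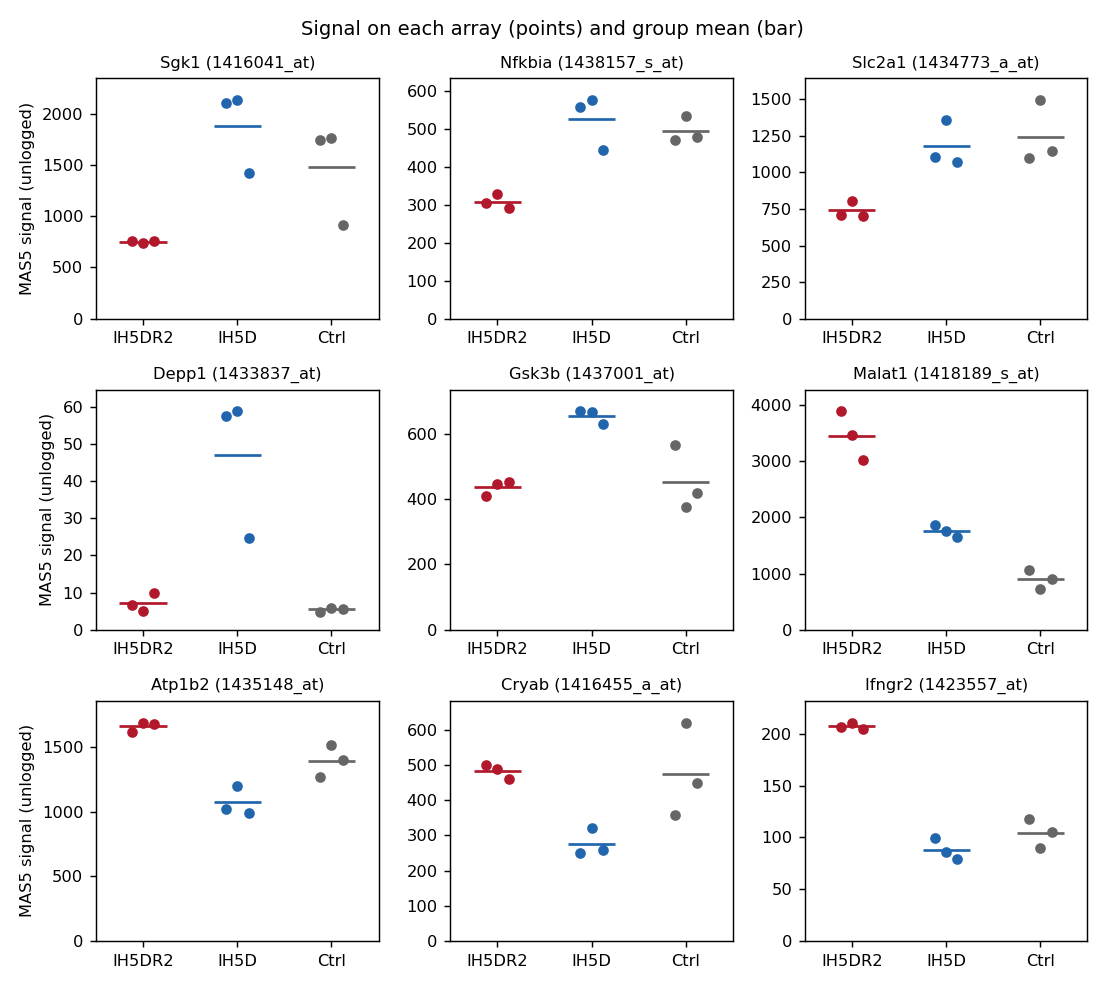
Unlogged MAS5 signal (vertical axes, from 0) of 9 called genes on each array (points) of IH5DR2, IH5D and Ctrl (horizontal axes), with the group mean as a bar. IH5DR2 lies below both other groups in Sgk1, Nfkbia and Slc2a1, above both in Malat1, Atp1b2 and Ifngr2, and within the range of Ctrl in Cryab; Depp1 and Gsk3b arrays of IH5DR2 also overlap with Ctrl.

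Apart from Malat1, each gene was called on a single probe set. Of 25 genes called, 23 had a further probe set above the signal minimum, 54 in all, of which 40 had the direction of the call and 14 the opposite one, and in 15 genes every further probe set had the direction of the call. Among the rises, Rab6b, a Golgi GTPase of neurons, passed on a probe set with 966, 889 and 931 in IH5DR2, against 458, 375 and 434 in IH5D (1.14 ± 0.10, adjusted p = 0.00198). Its brightest probe set, with mean signals of 3526 in IH5DR2 and 3790 in IH5D, had a difference of -0.11. Likewise Gpbp1, a promoter-binding factor (1.21 ± 0.14, adjusted p = 0.00606), Pnmal2, of the PNMA family (0.92 ± 0.11, adjusted p = 0.00606), and Smg1, a kinase of RNA surveillance (1.23 ± 0.19, adjusted p = 0.0284), passed beside brighter probe sets with differences of -0.11, 0.03 and 0.03. A probe set with no gene name, which lies outside the rule for named genes as Smg1 does, passed at 1.36 ± 0.18 (adjusted p = 0.0167).

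Among the falls, Snap25, a SNARE protein of vesicle fusion, passed on a dim probe set (-1.28 ± 0.15, adjusted p = 0.00606) with 109, 119 and 82.9 in IH5DR2, against 234, 277 and 237 in IH5D, while its main probe set averaged 6878 in IH5DR2 and 6438 in IH5D and had a difference of 0.09. Cplx2, or complexin, which clamps vesicle fusion, had 1602, 1896 and 1953 in IH5DR2, against 3518, 2698 and 2905 in IH5D (-0.74 ± 0.11, adjusted p = 0.0295). This was its brightest probe set, and both others went the other way, with differences of 0.25 and 0.09. Glrb, the anchoring subunit of glycine receptors, passed at -0.72 ± 0.11 (adjusted p = 0.0284), beside -0.15 on its brighter probe set. Gsk3b, a tau kinase, passed on a probe set outside the rule for named genes, with 409, 446 and 452 in IH5DR2, against 668, 666 and 630 in IH5D (-0.59 ± 0.09, adjusted p = 0.0284). Its brightest probe set had a difference of 0.20 and did not pass, so that no common direction of Gsk3b was measured.

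Other genes that fell were Eif3c, a subunit of a translation initiation factor (-0.85 ± 0.12, adjusted p = 0.0201), Gapvd1, an endocytic exchange factor (-1.09 ± 0.15, adjusted p = 0.0213), Rad21, of cohesin (-0.84 ± 0.12, adjusted p = 0.0284), Lrrc8d, of the volume-regulated anion channel (-0.81 ± 0.12, adjusted p = 0.0284), and Preb, which acts in export from the endoplasmic reticulum (-0.71 ± 0.11, adjusted p = 0.0295). Their other probe sets had differences between -0.21 and 0.15. Gm19439, a predicted gene with no other probe set tested, had 31.5, 58.3 and 62.4 in IH5DR2, against 148, 210 and 150 in IH5D (-1.78 ± 0.25, adjusted p = 0.0213). The remaining falls, named after their values were seen, were Cnbp, a nucleic acid-binding protein (-0.56), the splicing factor gene Rbm39 (-1.42), the Golgi nucleotidase gene Bpnt2 (-0.64) and a probe set shared by Morf4l1 and Morf4l1b (-1.35). The brightest probe sets of Cnbp and Rbm39 had differences of -0.15 and -0.09 and did not pass. Rbm39 passed on a dim probe set, whose IH5DR2 mean of 19.0 lay below the signal minimum. Of its 10 other probe sets, 9 were lower and 1 higher. Bpnt2 passed on its brightest probe set, beside -0.46 and -0.09 on the others. Of rises that did not pass, those of smallest p were Add1, a protein of the membrane skeleton (0.78 ± 0.13, adjusted p = 0.0564), the vesicle GTPase gene Rab3b (0.81 ± 0.14, adjusted p = 0.0592), the neuronal membrane protein gene Ctxn1 (0.47 ± 0.08, adjusted p = 0.0665), Lcat, which esterifies cholesterol (0.74 ± 0.13, adjusted p = 0.0698), and Hspb1, a small heat shock protein (1.09 ± 0.20, adjusted p = 0.0816).

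Set beside the Ctrl arrays, the called probe sets took several forms. Of the 18 lower in IH5DR2, 9 had Ctrl arrays that overlapped with IH5D only, as in Sgk1, Nfkbia and Slc2a1, and 6 had Ctrl arrays that overlapped with IH5DR2 only, as in Depp1 and Gsk3b. Of the 10 higher in IH5DR2, 3 had Ctrl arrays that overlapped with IH5D only and 2 with IH5DR2 only, and in 4, among them both of Malat1, Ctrl lay beyond IH5D on the far side from IH5DR2. These counts describe positions of 3 arrays and were not tested.

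Genes of the circadian clock did not pass, although several separated. Of 23 members measured none was called, 6 lay lower in IH5DR2 without overlap (26.1%, beside 6.99% of all genes) and 2 higher (8.7%, beside 7.68%), and the median log2 difference was -0.05 (-0.07 to 0.004 over the alternative settings). Per2, a repressor of the clock, had 72.8, 75.3 and 93.0 in IH5DR2, against 122, 129 and 153 in IH5D, and 111, 116 and 89.7 in Ctrl (-0.75 ± 0.15, adjusted p = 0.123). Dbp, an output transcription factor, had 835, 980 and 582 in IH5DR2, against 1168, 1198 and 1320 in IH5D, and 1566, 2011 and 1579 in Ctrl (-0.65 ± 0.16, adjusted p = 0.202). Arntl, partner of Clock, went the other way, with 138, 134 and 154 in IH5DR2, against 104, 103 and 69.3 in IH5D, and 102, 71.5 and 110 in Ctrl (0.65 ± 0.17, adjusted p = 0.253). The activator gene thus stood higher and these targets of it lower in IH5DR2, each without overlap and none past the threshold.

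The other separated members were Ciart (-0.62), a repressor, Cry1 (-0.50), Nr1d2 (-0.28), a nuclear receptor, Wee1 (-0.25), a kinase of the cell cycle, and, in the other direction, Cry2 (0.15). Members that overlapped had log2 differences of 0.51 for Nr1d1, 0.44 for Nfil3, 0.28 for Clock, 0.25 for Rora, 0.15 for Rorb, 0.07 for Csnk1e, 0.04 for Npas2, 0.03 for Csnk1d, 0.01 for Per1, -0.05 for Tef, -0.07 for Hlf, -0.08 for Bhlhe40, -0.10 for Usp2, -0.15 for Tspan4 and -0.20 for Per3. Per1, which is also a target of the glucocorticoid receptor, had 200, 154 and 197 in IH5DR2, against 181, 184 and 177 in IH5D, so that it overlapped where Per2 did not. The E-box CACGTG, the site of the clock's activators, occurred in 7.15% of all promoters and in 6 of 29 promoters of the list (5 of the 19 genes that matched). The promoters of Dbp, Nr1d2 and Arntl held none. The promoter of Ciart (chr3:95882179-95882478, minus strand) held 3, the most of the list, marked by capitals.
Ciart: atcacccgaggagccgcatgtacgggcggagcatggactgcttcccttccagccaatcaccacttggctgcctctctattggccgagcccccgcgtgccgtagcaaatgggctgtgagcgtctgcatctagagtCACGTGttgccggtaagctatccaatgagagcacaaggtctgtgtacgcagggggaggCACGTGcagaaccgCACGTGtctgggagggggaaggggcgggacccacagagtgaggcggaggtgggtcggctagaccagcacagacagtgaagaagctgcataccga

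**Figure D4:**
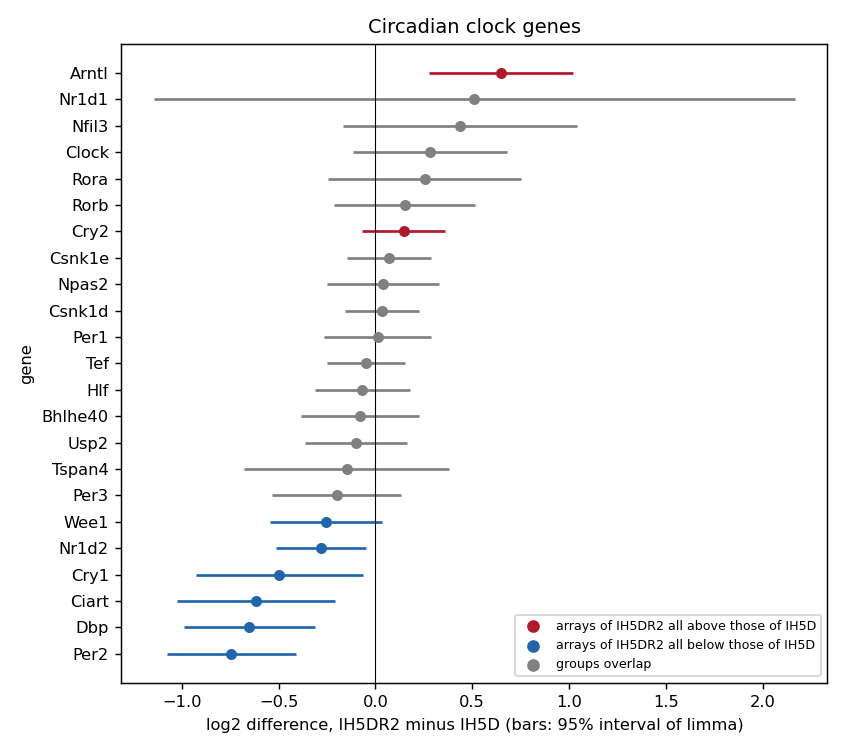
Log2 difference of IH5DR2 minus IH5D with its 95% interval (horizontal axis) for the 23 clock genes measured (vertical axis), coloured by whether the arrays of the groups overlap. Per2, Dbp, Ciart, Cry1, Nr1d2 and Wee1 lie lower and Arntl and Cry2 higher without overlap, and no gene passed the threshold.

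Genes of the hypoxia response were, where they separated, mostly lower after recovery. Of 32 measured, 1 was called, Slc2a1, 8 lay lower without overlap (25%, beside 6.99% of all genes) and 1 higher (3.12%, beside 7.68%), and the median was -0.08. Ankrd37, an early target of hypoxia-inducible factors, had 44.5, 40.2 and 46.7 in IH5DR2, against 66.8, 102 and 68.1 in IH5D, and 46.5, 51.7 and 59.5 in Ctrl (-0.82 ± 0.20, adjusted p = 0.213). Hif3a, an inhibitory factor of the family that glucocorticoids also induce, had 15.2, 30.4 and 24.9 in IH5DR2, against 57.5, 49.5 and 40.7 in IH5D, and 22.2, 37.7 and 37.4 in Ctrl (-1.11 ± 0.29, adjusted p = 0.253). Both stood above the IH5DR2 and Ctrl levels at the end of IHT. Pgk1, of glycolysis, had 2370, 2638 and 2622 in IH5DR2, against 2857, 3321 and 3254 in IH5D, and 3071, 3674 and 3551 in Ctrl (-0.30 ± 0.09, adjusted p = 0.302). Glycolytic enzymes did not share a direction. Among 17 genes of that list, Pkm (0.27) and Pfkl (0.34) lay higher without overlap (11.8%, beside 7.68% of all genes). Pgk1, Aldoc (-0.19), Pgam1 (-0.10) and Aldoa (-0.09) lay lower without overlap (23.5%, beside 6.99%). Oxidative phosphorylation was close to level, with 2 of 71 genes lower (2.82%) and none higher without overlap (median -0.02). Both of its shares lay below those over all genes.

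Chaperone genes were, where they separated, mostly higher in IH5DR2. Of 24 genes of the unfolded protein response, which refolds or removes proteins of the endoplasmic reticulum, none passed, 6 lay higher in IH5DR2 without overlap (25%, beside 7.68% of all genes) and none lower, with a median of 0.15. Pdia6, a disulfide isomerase, had 304, 311 and 311 in IH5DR2, against 203, 243 and 218 in IH5D (0.48 ± 0.10, adjusted p = 0.15). Hspa5, the main chaperone there, had 1077, 1061 and 1017 in IH5DR2, against 751, 966 and 774 in IH5D (0.35 ± 0.10, adjusted p = 0.308), and differences of Calr, a calcium-binding chaperone, and Pdia3 were 0.37 and 0.24. In the list of heat genes and of RNA-binding genes that follow temperature, 5 of 22 lay higher (22.7%) and 1 lower (4.55%) without overlap, with a median of 0.13. Chordc1, a cochaperone (0.42 ± 0.10, adjusted p = 0.213), Hspb1 on its brighter probe set (0.63 ± 0.18, adjusted p = 0.306) and Stip1, which joins the chaperones Hsp70 and Hsp90 (0.37 ± 0.11, adjusted p = 0.312), were higher in this sense, and the Hsp90 gene Hsp90aa1 was lower (-0.22 ± 0.08, adjusted p = 0.416). Over the alternative settings the members higher without overlap numbered 3 to 11 for the unfolded protein response and 5 to 8 for the heat list, and those lower 7 to 13 for the hypoxia response, against 11 to 21 for the glucocorticoid list.

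**Figure D5:**
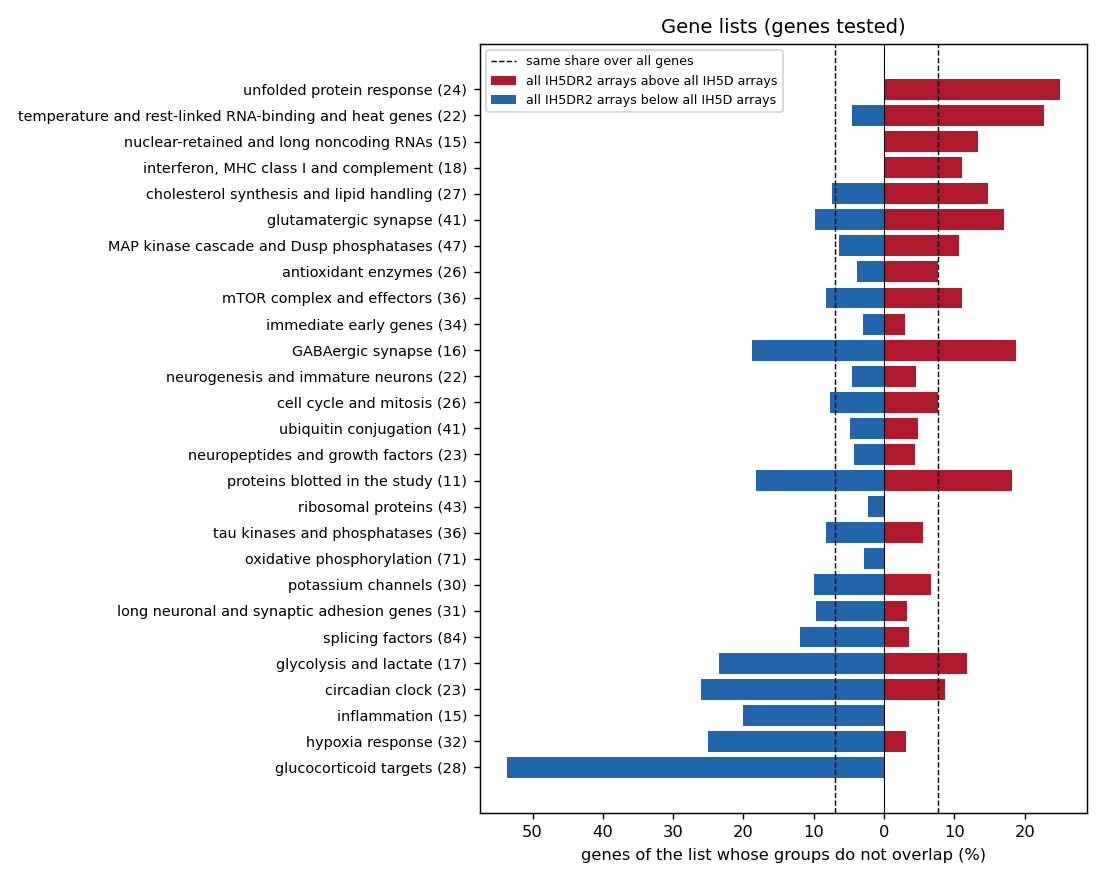
Share of the genes of each pathway or process list (horizontal axis, percent) on which all IH5DR2 arrays lay above (red, right) or below (blue, left) all IH5D arrays, with the number of genes measured beside each list's name. Dashed lines mark the shares over all genes, 7.68% higher and 6.99% lower, and the glucocorticoid list reaches 53.6% lower. The lists were chosen with earlier results of these data known.

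Immediate early genes, which neurons transcribe within minutes of firing, had no member past the threshold: of 34 measured, 1 lay higher (2.94%, beside 7.68% of all genes) and 1 lower (2.94%, beside 6.99%) without overlap, and the median was 0.11. Over the alternative settings 0 to 7 lay higher and 1 to 5 lower, with medians of 0.006 to 0.17. Jund, of the AP-1 factor, had 509, 627 and 462 in IH5DR2, against 703, 943 and 752 in IH5D (-0.59 ± 0.13, adjusted p = 0.179). Egr4 had the opposite direction at low signals, 48.1, 37.2 and 50.7 in IH5DR2, against 29.3, 35.6 and 23.2 in IH5D (0.63 ± 0.25, adjusted p = 0.463). Gadd45g, of the stress response (-0.50 ± 0.16, adjusted p = 0.345), and Nr4a2, a nuclear receptor (0.39 ± 0.13, adjusted p = 0.391), overlapped between the groups.

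Tau phosphorylation and glutamatergic synapses were studied on protein blots in the same project, and RNA of 11 of the 12 genes listed for them was measured here. On those blots the paper found total tau, the synaptic proteins and the subunits of the phosphatase PP2A alike in Ctrl, IH5D and IH5DR2. Phosphorylated tau rose in IH5D and was back at the Ctrl level in IH5DR2. The RNA values below are another measure and do not give protein levels. None of the 11 passed on its brightest probe set. Without overlap, 2 lay higher (18.2%, beside 7.68% of all genes) and 2 lower (18.2%, beside 6.99%). Syp, or synaptophysin of synaptic vesicles, had 1159, 1206 and 1244 in IH5DR2, against 1045, 952 and 929 in IH5D, and 1032, 1293 and 1218 in Ctrl (0.30 ± 0.08, adjusted p = 0.273). Slc17a7, the vesicular glutamate transporter VGluT1, had 353, 309 and 310 in IH5DR2, against 284, 221 and 237 in IH5D, and 318, 334 and 305 in Ctrl (0.39 ± 0.12, adjusted p = 0.321). Both presynaptic genes lay higher in IH5DR2 without overlap, and their IH5DR2 and Ctrl signals overlapped. The genes that lay lower without overlap were Pick1 and Ppp2r1a. Pick1, which removes AMPA receptors from the surface, had 81.1, 93.9 and 81.5 in IH5DR2, against 135, 98.3 and 108 in IH5D (-0.40 ± 0.16, adjusted p = 0.463), and the phosphatase scaffold gene Ppp2r1a had 6592, 7407 and 7476 in IH5DR2, against 7790, 7776 and 7885 in IH5D (-0.13 ± 0.08, adjusted p = 0.679).

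Of the rest, the tau gene Mapt itself had 792, 884 and 980 in IH5DR2, against 888, 805 and 851 in IH5D (0.06 ± 0.10, adjusted p = 0.902), whose groups overlapped. The log2 differences of the others were 0.30 for Ppp2r2a and -0.04 for Ppp2ca, of the phosphatase PP2A, 0.20 for Gsk3b, 0.13 for Dlg4, the scaffold PSD-95, and 0.03 for Gria1 and 0.06 for Gria2, of AMPA receptors, and all overlapped. Over 41 genes of the glutamatergic synapse none passed, 7 lay higher (17.1%, beside 7.68% of all genes) and 4 lower (9.76%, beside 6.99%) without overlap, and the median was 0.03. Over the alternative settings 6 to 12 lay higher and 2 to 9 lower, and the median ran from -0.03 to 0.10. Besides Slc17a7 the members of smallest p were the astrocytic glutamate transporter gene Slc1a2 (-0.26 ± 0.08, adjusted p = 0.303), the kainate receptor gene Grik5 (0.40 ± 0.12, adjusted p = 0.323) and the AMPA receptor auxiliary gene Cacng3 (0.46 ± 0.14, adjusted p = 0.324).

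Astrocyte markers were split. Of 25 measured none passed, and 8 lay lower (32%, beside 6.99% of all genes) and 1 higher (4%, beside 7.68%) without overlap. Yet the median was -0.002, and 12 of the 25 differences were positive. The separated higher marker was Sox9 (0.41), and the groups overlapped in Gfap (-0.01), Aqp4 (0.12), Gja1 (0.03) and Aldh1l1 (-0.002). Fgfr3, a growth factor receptor, had 342, 374 and 403 in IH5DR2, against 570, 534 and 460 in IH5D (-0.48 ± 0.11, adjusted p = 0.175), and the gap junction gene Gjb6 had 340, 363 and 346 in IH5DR2, against 460, 549 and 442 in IH5D (-0.46 ± 0.10, adjusted p = 0.175). Slc1a2, Fam107a and Glul, given above, are also among the 8, and the last pair belong to the glucocorticoid list too, so that these lists are not independent.

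Markers of the choroid plexus, which lies next to the hippocampus, varied strongly from array to array within both groups. All 19 measured had a positive difference, with a median of 1.09, but on none did the groups separate and none passed. Over the alternative settings the median ran from 0.39 to 2.07, and 0 to 12 members separated, the 12 without IH5D replicate 2, the IH5D array of high level. The mean log2 signal of the list was 7.98, 8.26 and 5.89 on the IH5DR2 arrays and 5.71, 8.27 and 4.83 on the IH5D arrays, so that 2 IH5DR2 arrays and 1 IH5D array were high. Ttr, the transthyretin that this tissue secretes, had 13410, 14230 and 9917 in IH5DR2, against 9621, 14800 and 3084 in IH5D (0.70 ± 0.42, adjusted p = 0.654). The growth factor gene Igf2 (1.03 ± 0.44, adjusted p = 0.506), the water channel gene Aqp1 (1.57 ± 0.96, adjusted p = 0.668) and Tmem72 (1.93 ± 1.20, adjusted p = 0.675) varied likewise. The IH5D mean of Tmem72, 12.0, lay below the signal minimum of 20, so that the size of its difference rests partly on values below that minimum. With the list's level as a covariate, chosen after seeing the data, 26 probe sets passed, 20 of the 28 among them, and Sgk1 (-1.40), Nfkbia (-0.85), Slc2a1 (-0.76) and Malat1 (0.91) still passed.

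Genes of meninges and fibroblasts had positive differences in 13 of 13 cases, 3 of them without overlap (23.1%, beside 7.68% of all genes), with a median of 0.64, and none passed. Over the alternative settings 1 to 10 lay higher without overlap, the 10 without IH5DR2 replicate 3, and the median ran from 0.41 to 0.94. Slc6a13, a transporter of the pial sheath, had 39.4, 48.8 and 46.9 in IH5DR2, against 10.8, 20.95 and 24.2 in IH5D (1.35 ± 0.32, adjusted p = 0.207). Slc6a13 and Slc22a6, both among the 3 separated genes, had IH5D means of 18.6 and 16.4, below the signal minimum of 20. They passed that minimum only through their IH5DR2 means of 45.0 and 24.3, so that their separation gives no support to a rise of the list. Dcn, a matrix proteoglycan, had 602, 579 and 463 in IH5DR2, against 431, 338 and 384 in IH5D (0.51 ± 0.13, adjusted p = 0.213), and the collagen gene Col1a2 (0.68 ± 0.21, adjusted p = 0.348) and Islr (0.68 ± 0.24, adjusted p = 0.401) overlapped between the groups. The mean log2 signal of the list was 7.21, 7.56 and 6.5 on the IH5DR2 arrays and 6.37, 6.87 and 6.14 on the IH5D arrays. The part of such tissue in the calls was not tested beyond the covariate. Of 19 markers of the neocortex 16 were positive, with a median of 0.17, and none passed. The lists of CA1 and CA3 pyramidal neurons and of dentate granule cells had medians of -0.05 and -0.07, with 1 of 22 (4.55%) and 2 of 18 genes (11.1%) lower, beside 6.99% of all genes, and none higher without overlap, beside 7.68%.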

How the data were processed

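Hippocampal RNA was hybridised to Affymetrix Mouse Genome 430 2.0 arrays, and the authors deposited MAS5 signals as log2 values, with each array scaled to a trimmed mean of 100. Of 45101 probe sets, 64 control probe sets and those with a mean unlogged signal of 20 or less over the 6 arrays were left out, which left 22693. Gene names came from the platform annotation: 34958 probe sets had 1 gene, 932 several, and 9211, controls included, none.

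IH5DR2 and IH5D, grouped by title, were compared on the log2 signals with limma 3.58.1 in R 4.3.3 (with the data.table package, version 1.17.8), using lmFit and eBayes with a variance trend, two-sided p-values, Benjamini-Hochberg adjustment over all probe sets tested and a threshold of 0.05. The fit was tested on simulated data. Errors of log2 differences are standard errors. In gene lists a gene was represented by its probe set of highest mean signal, and groups did not overlap when all arrays of one lay above all arrays of the other. Signals of different probe sets were not compared as levels, and the number of arrays limits the precision.

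Named by rule were the 12 largest rises and falls among called probe sets of 1 gene whose groups did not overlap and whose higher group averaged 100 or more (filled up by smallest p with probe sets that did not pass), the 4 members of smallest p of each list described, and all measured members of the clock list and of the list of blotted proteins. Members and lists were chosen with earlier results of these data known. Alternatives covered the arrays fitted, the signal minimum, the variance model, the scaling, the probe sets per gene, the methods' t-test, single arrays left out, the replicate block and, chosen after seeing the data, a fit of 9 arrays and the choroid plexus level as covariate. Replicate numbers were not used to pair the arrays in the main fit.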

Additional observations from a re-analysis of the deposited data

How the results depend on the processing

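Against 28 probe sets called (10 higher, 18 lower), limma called 0 with all 18 arrays, 7 without the Ctrl28 arrays (2 higher, 5 lower), 20 with 9 arrays (8 and 12), 23 with no signal minimum (10 and 13), 31 above a signal of 50 (10 and 21), 0 without the variance trend, 39 with robust variance (12 and 27), 33 after quantile normalization (11 and 22), 38 after median centring (12 and 26), 31 on log2 of signal plus 20 (10 and 21), 44 with array weights (15 and 29), 16 with the 3' to 5' gap as covariate (8 and 8) and 26 with the choroid plexus covariate (11 and 15). The highest probe set per gene gave 8 (3 and 5) and the mean of probe sets 1 (0 and 1). With 1 array left out 8 to 13 were called, 4 to 9 higher and 4 to 7 lower. The methods' t-test gave 0 after adjustment and 1413 (671 and 742) or, on log2 signals, 1398 (652 and 746) unadjusted. With 0 calls, 877 (all arrays) and 1990 (no trend) had an unadjusted p below 0.05. Every one of the 28 kept its sign in each fit of probe sets that held it. With 1 array left out this was fixed in advance, since the groups of all 28 did not overlap. Fits without the variance trend, with robust variance, with another signal minimum or with further arrays held the same difference, so that the sign could not turn there either.

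Deviations from the group mean correlated at 0, 0.15 and 0.13 between arrays of the same replicate number (1, 2 and 3). Between arrays of different numbers they correlated at -0.2 to 0.07. These weak correlations do not settle whether the numbers pair the arrays. The replicate block gave 22 calls (12 and 10), 18 of them among the 28.

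On the highest probe set per gene the signs turned for Gpbp1 and Rab6b (-0.105 each), Snap25 (0.092) and Gsk3b (0.195). With the mean of probe sets they turned for Hlf (0.020), Rora (-0.172), Gsk3b's brightest set (-0.079), Ppp2ca (0.038), Gria1 (-0.015) and Gria2 (-0.059). Per1 was -0.006 after quantile normalization, -0.004 after centring and -0.007 with the gap covariate, and Bhlhe40 was 0.021 with the gap and 0.058 with the choroid plexus covariate, which also turned Npas2 (-0.003) and Nr1d1 (-0.156). With 1 array left out the differences ran from -0.056 to 0.135 for Per1, -0.034 to 0.137 for Npas2, -0.543 to 1.204 for Nr1d1, -0.131 to 0.008 for Tef, -0.18 to 0.005 for Hlf, -0.247 to 0.039 for Bhlhe40, -0.006 to 0.088 for Csnk1d, -0.204 to 0.041 for Usp2, -0.351 to 0.162 for Tspan4, -0.017 to 0.136 for Mapt, -0.055 to 0.127 for Gria1 and -0.07 to 0.224 for Gria2. None of these clock and synapse genes had passed. The causes were not tested.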

Other observations

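Without overlap, 6.99% of all genes measured lay lower and 7.68% higher in IH5DR2. Of 84 splicing factor genes 10 lay lower (11.9%) and 3 higher (3.57%), with a median of -0.04, Srsf6 (-0.35) and Hnrnpab (-0.24) being among the lower ones, chosen after their values were seen. Ribosomal protein genes had a median of -0.01 over 43 genes, with 1 lower (2.33%) and none higher. Oligodendrocyte and myelin genes had a median of -0.12 over 23 genes, with 3 lower and 3 higher (13% each), and genes of cholesterol synthesis and lipid handling a median of 0.10 over 27 genes, with 4 higher (14.8%) and 2 lower (7.41%). Of 15 genes of inflammation 3 lay lower (20%) and none higher, with a median of -0.05. On the brightest probe set per gene, which these counts use, no gene of these lists passed the threshold, while Rbm39, of the splicing list, and Nfkbia, of the inflammation list, passed on another probe set.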
